A study of Mus musculus with 6 samples.

Results

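The genes described are 10 imprinted genes that control growth, Cdkn1c, H19, Igf2, Igf2r, Meg3, Dlk1, Grb10, Peg3, Plagl1 and Mest, out of 24062 gene symbols in the count table. They were taken from the table by symbol, and Cdkn1c was selected on its counts in these same libraries to be set against the other members, so the E2 versus vehicle values of the members are given as a description, with no test. The libraries are described as RNA bound to ribosomes of skeletal muscle endothelium (gastrocnemius and soleus), obtained by translating ribosome affinity purification followed by RNA sequencing (TRAPseq). All mice are described as ovariectomized GFP-L10aEC females. Their strain label names B6.129S4, a Gt(ROSA)26Sorfm1 allele with CAG-EGFP/Rpl10a and birA, and Wtp/J. In these mice VECad-Cre switches on the tagged ribosomal protein L10a in endothelial cells. They had been given vehicle (placebo) pellets for 3 of the libraries and 17β-estradiol (E2) pellets for the other 3, over 4 weeks. The labels give an age of 4 weeks, whereas the study's methods place ovariectomy at 6 weeks of age and give an E2 dose of 6 µg per day. Labels name 2 mouse numbers for every library without saying whether RNA was pooled, and the library is taken as the replicate, so that p-values measure the spread between libraries.

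An imprinted gene is transcribed mainly from the copy inherited from a given parent, because DNA methylation set in the egg or the sperm marks the copies differently. Many imprinted genes act on growth. Igf2 encodes a growth factor that is made chiefly from the paternal copy, while the maternally expressed Igf2r encodes the receptor that takes this factor up for degradation. Cdkn1c, also expressed from the maternal copy, encodes an inhibitor of cyclin-dependent kinases that holds cells out of division.

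Counts per library summed to between 84823 (vehicle replicate 3) and 451034 (vehicle replicate 2), so that 1 count corresponds to between 11.8 and 2.22 CPM (counts scaled to a common library total of 1000000). Vehicle replicates 1 and 2 formed a pair apart from the other 4 libraries. Pearson's r of log2(CPM + 1) across the genes tested was 0.949 between them, 0.569 and 0.575 with vehicle replicate 3 and 0.606 to 0.665 with the E2 libraries, whereas vehicle replicate 3 had 0.676 to 0.768 with the E2 libraries. The libraries labelled vehicle replicates 1 and 2 also went against the description of the mice, since the 4 Y-linked genes examined (Ddx3y, Eif2s3y, Kdm5d and Uty) had 40 and 63 counts in them and 0 in each of the other 4 libraries. Xist, the RNA of the inactive X chromosome, was at 3.46 and 2.22 CPM in this pair, at 35.4 CPM in vehicle replicate 3 and at 44.8 to 85.6 CPM with E2. The summed level of 13 endothelial markers was 259 to 889 CPM with vehicle and 143 to 637 CPM with E2, and all 13 markers had a count. That of 13 muscle fiber markers was far higher, at 49904 to 92921 CPM with vehicle and 39083 to 46661 CPM with E2, so the libraries were not limited to endothelial RNA, and from which cells the members' counts came was not tested.

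All 10 members were listed in the table, 9 had at least 1 count and 4 (H19, Igf2r, Grb10 and Mest) passed the filter on low counts. Together they had 712 counts in the vehicle libraries and 223 in the E2 libraries. Among the 9 members with 10 or more counts, the E2 range lay wholly below the vehicle range for Cdkn1c, Igf2r and Meg3, and for no member did it lie wholly above. Over the 6843 genes with 10 or more counts, 10.5% lay below in this way and 6.17% lay above. As the members were chosen with this contrast in view, nothing is read from their share. In bulk RNA, fewer cells of a type and less RNA per cell cannot be told apart, which holds for every level given here.

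**Figure D1:**
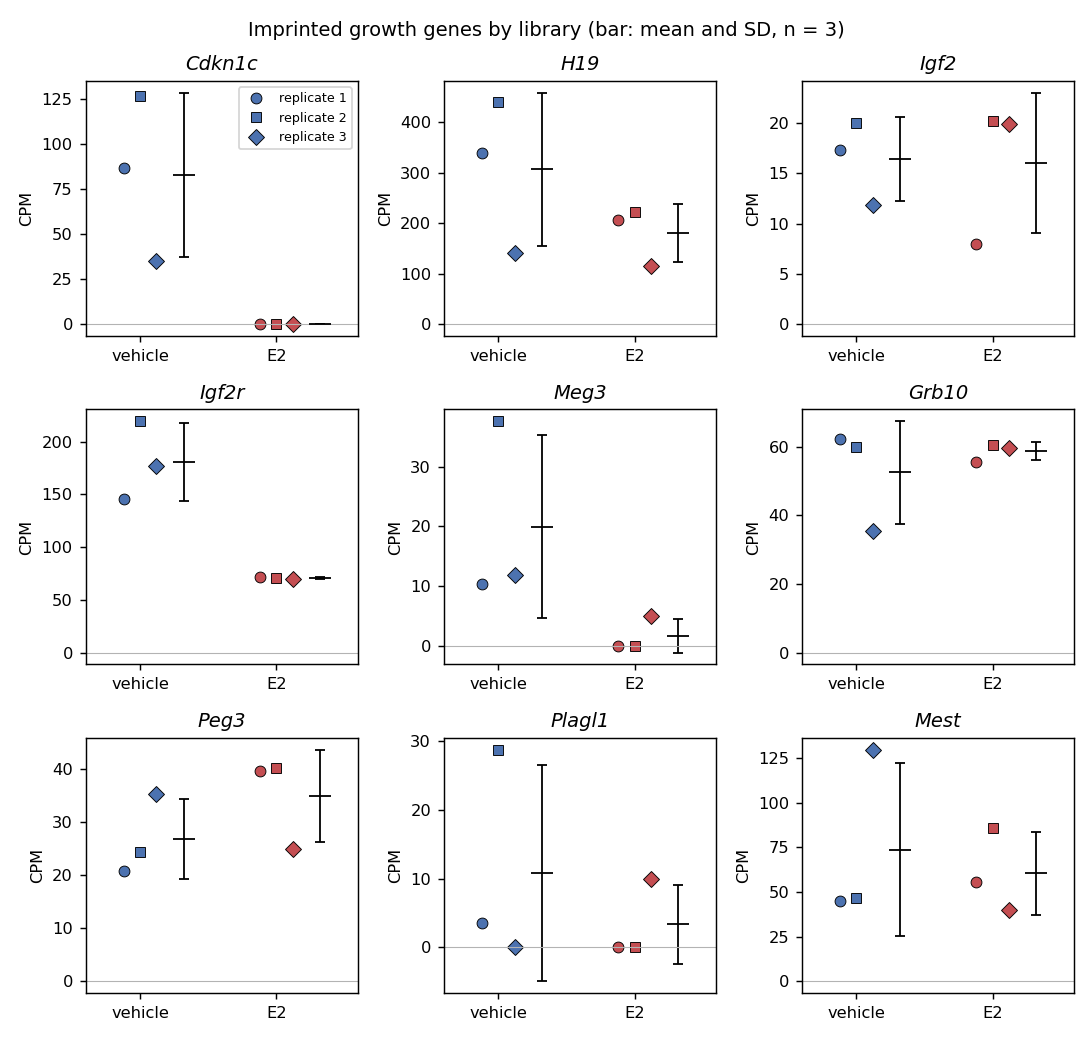
Level in CPM (linear axis, own scale for each gene) of the 9 members with a count, in 3 vehicle (blue) and 3 E2 (red) libraries; symbols mark the replicate, and the bars beside them the mean and SD. Cdkn1c is at 0 in every E2 library, Igf2r lies between 69.6 and 71.5 CPM with E2 against 145 to 219 CPM with vehicle, and the groups overlap for H19, Igf2, Grb10, Peg3, Plagl1 and Mest.

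Levels of different genes were compared per kb of annotated exon. In the vehicle libraries H19 was the most abundant member, at 125 ± 61.6 CPM per kb (SD, n = 3), followed by Cdkn1c at 40.6 ± 22.4, Igf2r at 19.4 ± 3.99 and Mest at 18.7 ± 12.3. The ranges of H19 and Cdkn1c over libraries overlapped, from 57.5 CPM per kb upwards for H19 and up to 62.0 for Cdkn1c, but within each vehicle library H19 was 2.88 to 3.32 times Cdkn1c per kb. Cdkn1c was above Igf2r, and Igf2r above Mest, in vehicle replicates 1 and 2 and not in vehicle replicate 3. Grb10 (5.78 ± 1.64), Igf2 (2.86 ± 0.728) and Peg3 (2.01 ± 0.570) were lower, and every vehicle library of Grb10 lay above every one of Igf2. Plagl1 was at 1.38 ± 2.01 and Meg3 at 1.10 ± 0.850. With E2 the order of the members that were detected was H19, Mest, Igf2r, Grb10, Igf2, Peg3, Plagl1 and Meg3, so that apart from the absence of Cdkn1c, Mest and Igf2r exchanged places.

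**Figure D2:**
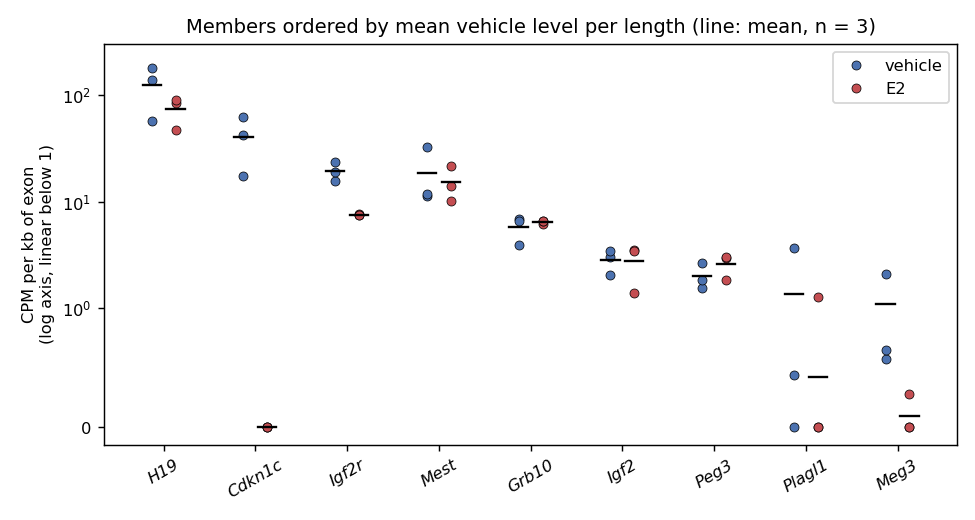
CPM per kb of exon (log axis, linear below 1) of the 9 members with a count, ordered by their mean in the vehicle libraries; points are libraries (vehicle blue, E2 red) and lines are means of 3. H19 has the highest mean in both groups, Cdkn1c drops from the second place with vehicle to 0 with E2, and the libraries of both groups overlap for Grb10, Igf2 and Peg3.

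Cdkn1c (ENSMUSG00000037664.13) is a minus-strand gene of chromosome 7 (mm10, from 143458339 to 143461050). Vehicle replicates 1, 2 and 3 held 25, 57 and 3 counts of it, and each of the 3 E2 libraries held 0. Its level with vehicle was therefore 86.6, 126 and 35.4 CPM (82.8 ± 45.6 CPM, SD, n = 3). A count of 0 was taken to allow up to 3 counts (a 1-sided 95% limit), which is 23.8, 15.1 and 14.9 CPM in E2 replicates 1, 2 and 3. Over the 525479 counts of the E2 group it is 5.71 CPM. The exact 95% Poisson intervals used below end higher for these libraries, at 29.3, 18.6 and 18.4 CPM. The mean vehicle level of Cdkn1c was 14.5 times the limit over the group, and the groups did not overlap. This ratio leaves out the spread of the vehicle libraries, so it is no lower bound. It was 10.7 without vehicle replicate 2. With fewer E2 counts the limit rises, and the ratio was 9.02 without E2 replicate 2 and 8.95 without E2 replicate 3. Cdkn1c did not pass the filter on low counts, since vehicle replicate 3 and the E2 libraries were too low, so it is not among the genes tested.

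The precision of this difference rests on vehicle replicates 1 and 2, which carry the Y-linked counts. Their exact 95% Poisson intervals, which cover counting error only, were 56.0 to 128 CPM and 95.7 to 164 CPM. In vehicle replicate 3, the only vehicle library without a Y-linked count, the interval on 3 counts was 7.29 to 103 CPM. At the level of that library the E2 group would have held 18.6 counts, and between 3.83 and 54.3 counts over its interval. No fold is given for vehicle replicate 3 alone, because its 3 counts are themselves at the limit. At the level of vehicle replicates 1 and 2 together, vehicle replicate 3 would have held 9.40 counts.

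Few genes of this abundance were at 0 in all E2 libraries, from which nothing is read for Cdkn1c, as it was selected on this contrast. Among the 929 genes with as many vehicle counts as Cdkn1c or more, 4 (0.431%) had no count with E2, namely Cdkn1c, the caspase gene Casp9, the Y-linked Eif2s3y and Cpa1, which encodes a digestive enzyme of the pancreas. Casp9 had 78 and 69, Cpa1 had 54 and 79 and Eif2s3y had 29 and 57 counts in vehicle replicates 1 and 2. These 3 genes, named after their values were seen, had 0 counts in vehicle replicate 3, where Cdkn1c had 3. Further pancreatic enzyme genes with fewer counts had the same pattern, as Cpb1 had 17 and 31, Pnlip 19 and 13 and Prss2 13 and 19 counts in that pair of libraries, with none elsewhere. Fam212a, with 16, 15 and 1 vehicle counts and none with E2, had counts in every vehicle library as Cdkn1c did. Vehicle replicates 1 and 2 held 82 of the 85 counts of Cdkn1c. Whether what set vehicle replicates 1 and 2 apart contributed to the level of Cdkn1c was not tested.

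**Figure D3:**
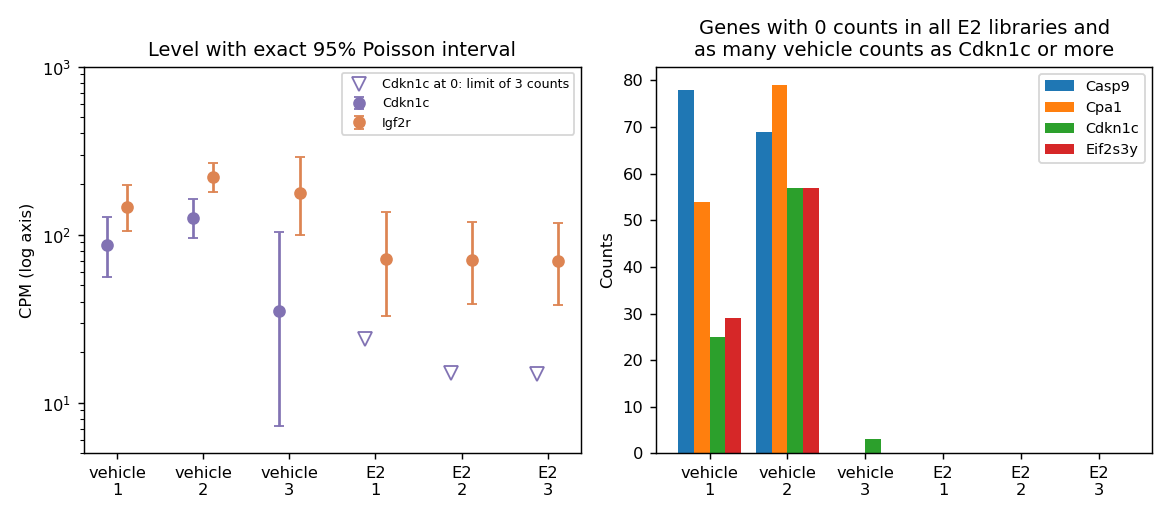
Left, level in CPM (log axis) of Cdkn1c and Igf2r in each library with exact 95% Poisson intervals; open triangles mark the limit that 0 counts of Cdkn1c allow (3 counts). Right, counts of the 4 genes with 0 counts in all E2 libraries and at least as many vehicle counts as Cdkn1c. The interval of Cdkn1c in vehicle replicate 3 (7.29 to 103 CPM) spans the E2 limits of 14.9 to 23.8 CPM, and Cdkn1c alone of the 4 genes has counts in vehicle replicate 3.

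Relative to the summed endothelial markers, Cdkn1c was at 10.6%, 14.2% and 13.6% of their level in vehicle replicates 1, 2 and 3. The value of vehicle replicate 3 rests on 3 counts of Cdkn1c over 22 endothelial counts, so it is imprecise. The marker sum was 817, 889 and 259 CPM in vehicle replicates 1, 2 and 3 and 143, 363 and 637 CPM in E2 replicates 1, 2 and 3. The 0 counts of Cdkn1c allow up to 16.7%, 4.17% and 2.34% of the marker sum in E2 replicates 1, 2 and 3. The limit in E2 replicate 1, on 18 endothelial counts, thus lay above every vehicle value, and those of E2 replicates 2 and 3 lay below. The make-up of the marker sum varied between libraries. The cadherin gene Cdh5 held 54 of 236, 131 of 401 and 14 of 22 endothelial counts in vehicle replicates 1, 2 and 3. It held 6 of 18, 37 of 72 and 75 of 128 in E2 replicates 1, 2 and 3. Of the markers tested, Kdr was fitted at a log2 fold change of -2.22 (standard error 0.73), Egfl7 at -0.80 (0.63) and Cdh5 at 0.13 (0.56). The summed level of 7 adipocyte markers was 141 to 306 CPM with vehicle and 55.6 to 139 CPM with E2, a difference carried by the fatty acid binding protein gene Fabp4. Without Fabp4 the sums overlapped, at 51.9 to 77.6 CPM and 39.7 to 74.6 CPM. Smooth muscle and pericyte markers summed to 4878, 4554 and 1261 CPM in vehicle replicates 1, 2 and 3 and to 2025, 1587 and 940 CPM with E2. Vehicle replicates 1 and 2 were highest, as for Cdkn1c. The groups overlapped for the fibroblast sum (505 to 601 and 453 to 611 CPM) and the immune sum (34.6 to 165 and 55.6 to 119 CPM). Myoblast and satellite cell markers were close to 0, as Pax7 and Myog had no count in any library and the list of 6 had at most 10 counts in 1 library. In the GENCODE annotation, exons of Cdkn1c share 625 bases with Gm44732 on the opposite strand, and Gm44732 is not a row of the table.

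The neighbours of Cdkn1c in its imprinted domain were mostly not detected. Kcnq1, Phlda2 and Slc22a18, which flank it on chromosome 7, had 0 counts in all 6 libraries, which allows from 6.65 CPM in vehicle replicate 2 up to 35.4 CPM in vehicle replicate 3, and Ascl2 had 1. Kcnq1ot1, the long noncoding RNA from the paternal copy that silences Cdkn1c in cis, had 218, 251 and 554 CPM in the vehicle libraries and 270, 413 and 134 CPM in the E2 libraries. The groups overlapped (edgeR's quasi-likelihood test, log2 fold change -0.21, standard error 0.50, adjusted p = 0.821), and this p does not show that the level was the same.

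H19 and Igf2 are neighbours in a second domain of chromosome 7, in which the maternal copy makes the noncoding RNA H19 and the paternal copy makes Igf2. H19 (ENSMUSG00000000031.16, from 142575529 to 142578143 on the minus strand) had 339, 439 and 141 CPM with vehicle and 206, 222 and 114 CPM with E2. Vehicle replicates 1 and 2 were above all other libraries and vehicle replicate 3 lay within the range of the E2 libraries. The fitted log2 fold change was -0.69 (standard error 0.47), and the log2 ratio of mean CPM was -0.76. Without vehicle replicates 1 and 2 this ratio turned to 0.35. Igf2 (ENSMUSG00000048583.16, from 142650766 to 142666816) was low, with 17.3, 20.0 and 11.8 CPM with vehicle and 7.94, 20.1 and 19.9 CPM with E2. Its groups overlapped, and its log2 ratio was -0.03 over library totals, 0.12 over TMM effective sizes and 0.11 without the counts of the ribosomal RNA gene Rn45s.

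H19 RNA is the source of the microRNA miR-675, whose hairpin (from 142577064 to 142577147) lies wholly in an H19 exon, sharing 84 bases with it. The table counts the hairpin as the separate gene Mir675, with vehicle counts of 49, 74 and 2 and E2 counts of 8, 17 and 7. Vehicle replicates 1 and 2 were the highest, and vehicle replicate 3 was the lowest. That is between 16.7% and 50.0% of the counts of H19, from a small part of its length. Mir675 and H19 overlap on the same strand, so reads of the precursor RNA and of the hairpin cannot be told apart. The counts of Mir675 may all be reads of H19 RNA and do not show that mature miR-675 was present. The mature sequences from RefSeq (GRCm38.p6, 5′ to 3′, minus strand, seed in capitals) are shown because a microRNA gene was counted at this member locus in all 6 libraries.
mmu-miR-675-5p: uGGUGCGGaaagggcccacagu
mmu-miR-675-3p: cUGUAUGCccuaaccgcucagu
No other mature mouse microRNA in that table shares either seed. Of the other microRNA genes listed for member loci and their domains, Mir434 and Mir136 had 1 count each, both in E2 replicate 3. Both lie within the span of Rtl1, outside the members. The remaining 9 had none.

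Igf2r, the receptor that clears the Igf2 protein, was lower in every E2 library. This minus-strand gene of chromosome 17 (ENSMUSG00000023830.14, from 12682406 to 12769664) had vehicle counts of 42, 99 and 15 and E2 counts of 9, 14 and 14. These were 145, 219 and 177 CPM with vehicle and 71.5, 70.5 and 69.6 CPM with E2, with every E2 library below every vehicle library. Mean levels were 181 ± 37.2 CPM and 70.5 ± 0.910 CPM (SD, n = 3 each), and the mean with vehicle was 2.56 times that with E2. The spread of the E2 libraries was smaller than their counting error, since the exact 95% Poisson interval of E2 replicate 2 alone was 38.6 to 118 CPM. The fitted log2 fold change was -1.21 (standard error 0.44). Against vehicle replicate 3 alone, without the libraries that carry Y-linked counts, the log2 ratio of mean CPM was -1.33, compared with -1.36 in all libraries. With any 1 library left out it lay between -1.49 and -1.19. Relative to the summed endothelial markers Igf2r was at 17.8%, 24.7% and 68.2% with vehicle and 50.0%, 19.4% and 10.9% with E2, so that on this scale the groups overlapped.

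Airn, the paternal noncoding RNA that runs across Igf2r on the opposite strand, was detected with 4, 4 and 1 counts under vehicle and 0, 0 and 1 under E2, and did not pass the filter. The 250 bases before the RefSeq start of Igf2r (RefSeq, GRCm38.p6, chr17:12769707-12769956, minus strand, written 5′ to 3′) are shown because Igf2r was the member with counts in all 6 libraries whose groups did not overlap, and its promoter is rich in CpG dinucleotides, the sites of DNA methylation. The capitals mark the 27 CpG dinucleotides.
Igf2r promoter: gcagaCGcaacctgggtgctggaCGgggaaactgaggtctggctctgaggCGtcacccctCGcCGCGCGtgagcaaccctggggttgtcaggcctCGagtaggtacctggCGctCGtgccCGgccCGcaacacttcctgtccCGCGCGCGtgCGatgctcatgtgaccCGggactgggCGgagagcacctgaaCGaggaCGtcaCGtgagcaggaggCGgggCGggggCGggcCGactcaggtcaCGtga
Promoters of 8 of the 10 members were in the RefSeq table, 15 in all, and those of Cdkn1c and H19 were not. As many CpG as in Igf2r were held by 8.56% of the 32851 promoters of the table, whose median was 6 over the same 250 bases, and the median of the 15 member promoters was 10. The highest number among them was 40, in a promoter of Grb10. Both strands were also searched for the core of the estrogen response element, GGTCA, and its whole palindrome, GGTCANNNTGACC. The core was present in 8 of the 15 member promoters and in 35.2% of all promoters. These 8 belong to 5 genes, Igf2, Igf2r, Meg3, Grb10 and Mest, and include a pair of overlapping windows of Mest. None of the 15 and 0.0639% of all promoters held the palindrome, which contains the core. These are matches of letters in a short window and describe no binding.

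Meg3 and Dlk1 belong to an imprinted domain of chromosome 12, in which the maternal copy makes the noncoding RNAs Meg3, Rian and Mirg and the paternal copy makes Dlk1, a transmembrane protein that restrains differentiation. Dlk1 had 0 counts in all 6 libraries, which allows up to 35.4 CPM in vehicle replicate 3 and 6.65 CPM in vehicle replicate 2. Meg3 (ENSMUSG00000021268.17, from 109541001 to 109571726) had vehicle counts of 3, 17 and 1 and E2 counts of 0, 0 and 1. In CPM this was 10.4, 37.7 and 11.8 with vehicle and 0, 0 and 4.97 with E2, so that the groups did not overlap, but the limit of 23.8 CPM for the 0 counts of E2 replicate 1 was above the levels of vehicle replicates 1 and 3. Of the 22 counts of Meg3, 17 were in vehicle replicate 2.

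Rian, transcribed from the same strand of the domain as Meg3 (from 109603940 to 109661716), went the other way. Its vehicle counts were 5, 17 and 2 and its E2 counts 13, 8 and 16, or 17.3, 37.7 and 23.6 CPM with vehicle and 103, 40.3 and 79.6 CPM with E2. The E2 range lay wholly above the vehicle range, though E2 replicate 2 was close to vehicle replicate 2. Rian did not pass the filter. In edgeR's quasi-likelihood test without vehicle replicate 3 it was fitted 1.57 higher with E2 on the log2 scale (standard error 0.52, adjusted p = 0.0167). That fit set only the 2 vehicle libraries with Y-linked counts against the E2 libraries, and it called 1003 of the 2162 genes tested. In the other settings with replicate vehicle libraries that tested it, the adjusted p of Rian from the same test lay between 0.104 and 0.409. Mirg had no count and Rtl1, a paternally expressed gene between Meg3 and Rian, had 14 counts in all.

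The groups overlapped for Grb10 and Mest. Grb10, which encodes an adaptor protein that binds and restrains the insulin and IGF1 receptors, had 62.3, 59.9 and 35.4 CPM with vehicle and 55.6, 60.4 and 59.7 CPM with E2. Its vehicle libraries reached both above and below the E2 range, and the fitted log2 fold change was 0.21 (standard error 0.46). Against vehicle replicate 3 alone its log2 ratio of mean CPM was 0.73 in place of 0.16. Mest, a paternally expressed gene of the hydrolase family, had 45.0, 46.6 and 130 CPM with vehicle and 55.6, 85.6 and 39.8 CPM with E2 (fitted log2 fold change 0.08, standard error 0.51). The log2 ratio of mean CPM had the other sign, -0.29, and turned to 0.40 without vehicle replicate 3, while it was -1.10 without vehicle replicates 1 and 2. Its highest level was in vehicle replicate 3, on 11 counts. Exons of Mest share 912 bases with the imprinted Copg2 on the opposite strand, which also had its highest level in vehicle replicate 3, at 189 CPM against 34.6 to 87.3 CPM in the other libraries. As no source used here states whether counting used the strand, reads from the shared bases could belong to either gene.

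Peg3 and Plagl1, which both encode paternally expressed zinc finger proteins, were low. Peg3 had 20.8, 24.4 and 35.4 CPM with vehicle and 39.7, 40.3 and 24.9 CPM with E2, with overlapping groups and between 3 and 11 counts per library. Plagl1 had vehicle counts of 1, 13 and 0 and E2 counts of 0, 0 and 2, so that its mean with vehicle rests on vehicle replicate 2. Without that library its log2 ratio of mean CPM was 0.94, whereas it was -1.70 in all libraries. Cdkn1c was the only member with a count in every vehicle library and in no E2 library. The summed level of the 9 other members was 644, 876 and 542 CPM with vehicle and 437, 499 and 343 CPM with E2, of which H19 held the largest part in every library but vehicle replicate 3. Cdkn1c made up 11.8%, 12.6% and 6.12% of all member counts in the vehicle libraries, and its 0 counts allow up to 5.45%, 3.03% and 4.35% in the E2 libraries.

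Other genes were tested with edgeR's quasi-likelihood test over the 1682 genes that passed the filter, of which 50 (2.97%) were lower and 42 (2.50%) higher with E2 at an adjusted p below 0.05. The balance varied with the method, with 80 lower and 37 higher when libraries were scaled by their totals only, 132 and 31 without a filter, 49 and 47 with DESeq2, 9 and 63 with limma-voom, 1 and 7 with the replicate block and 0 and 11 with 10 counts required in every library. At an unadjusted p below 0.05 there were 431 genes (25.6%), beside which the counts of the lists are to be read. Of 50 further imprinted genes, 49 were in the table, 32 had a count, 7 were tested and none was called, against 1 at an unadjusted p below 0.05, and these counts say little among 7 genes. DESeq2 and limma-voom also called none of the 7. Their median log2 fold change was -0.21, beside 0.01 for all genes tested, and 4 of the 7 were below 0. Gnas, which encodes the stimulatory G protein subunit and several imprinted transcripts, had 415, 656 and 106 CPM with vehicle and 71.5, 161 and 114 CPM with E2 (log2 fold change -1.64, standard error 0.55, with edgeR's test giving an adjusted p = 0.0783). Its vehicle replicates 1 and 2 were above all other libraries, as for H19. Without vehicle replicate 3, in a fit that called 1003 of 2162 genes tested, the adjusted p of Gnas in the same test was 1.15e-04. Without vehicle replicates 1 and 2 its log2 fold change was 0.25. In the other alternatives with replicate vehicle libraries and edgeR's test, its adjusted p lay between 0.0460 and 0.281. Inpp5f, a phosphatase gene, and Trappc9, of a vesicle tethering complex, had log2 fold changes of 0.33 and 0.52 with adjusted p of 0.713 and 0.505 in that test.

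The IGF axis was represented by 20 further genes, of which 17 had a count, 4 were tested and none was called, nor at an unadjusted p below 0.05, nor by DESeq2 or limma-voom. At the shares of all genes, 5.47% called and 25.6% at an unadjusted p below 0.05, a count of 0 among 4 genes says little. Their median log2 fold change was 0.08. Igfbp5, which encodes a binding protein that holds IGFs outside the cell, had the most counts of the list, at 1032, 1075 and 589 CPM with vehicle and 373, 609 and 378 CPM with E2. The lowest vehicle library lay just below the highest E2 library (log2 fold change -0.88, standard error 0.45, edgeR's adjusted p = 0.224). Without vehicle replicate 3, in the fit that called 1003 of 2162 genes tested, the adjusted p of the same test was 0.0113. It lay between 0.154 and 0.557 in the other alternatives with replicate vehicle libraries. Igfbp3, of the same family, was at a log2 fold change of -0.02 (standard error 0.45) and Irs1, an adaptor of the insulin and IGF1 receptors, one of 0.19 (standard error 0.55). Igf2bp3, whose product binds Igf2 mRNA, had one of 0.67 (standard error 0.52, edgeR's adjusted p = 0.432). The receptor gene Igf1r had 52 counts in all and Igf1 had 37, and neither passed the filter.

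The relatives of Cdkn1c among the cyclin-dependent kinase inhibitors were low. Cdkn1b had 51.9, 33.3 and 47.2 CPM with vehicle and 15.9, 35.3 and 19.9 CPM with E2, with overlapping groups and 47 counts in all, and Cdkn1a had 10 counts in all. Pcna, which encodes the sliding clamp of DNA replication, had 6.92, 4.43 and 0 CPM with vehicle and 23.8, 10.1 and 19.9 CPM with E2. Its E2 range lay wholly above the vehicle range, on 13 counts in all, and the 35.4 CPM that a count of 0 allows in vehicle replicate 3 is above every E2 value. Of the 26 inhibitors, cyclins, kinases and proliferation genes listed, 20 had a count and 3 were tested. None was called, nor at an unadjusted p below 0.05, nor by DESeq2 or limma-voom, which says as little among 3 genes. Their median log2 fold change was 0.38, with Ccna2 at 0.29 (standard error 0.46), Ccne2 at 0.47 (standard error 0.45) and Rbl2 at 0.38 (standard error 0.58), and their standard errors leave room for changes in either direction. Of 18 genes that set, keep or remove DNA methylation and related chromatin marks, 16 had a count and only Tet3, which encodes an enzyme that oxidizes methylated cytosine, was tested. It was not called (log2 fold change 0.07, standard error 0.57, edgeR's adjusted p = 0.954), nor at an unadjusted p below 0.05, nor by DESeq2 or limma-voom. The DNA methyltransferase gene Dnmt3a had 72.7, 66.5 and 11.8 CPM with vehicle and 31.8, 15.1 and 4.97 CPM with E2, and did not pass the filter. Without vehicle replicate 3 it was tested at a log2 fold change of -1.89 (standard error 0.59, edgeR's adjusted p = 0.0121). That is the fit in which 1003 of 2162 genes tested were called. The adjusted p of Dnmt3a from the same test was between 0.174 and 0.437 in the other alternatives that tested it.

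**Figure D4:**
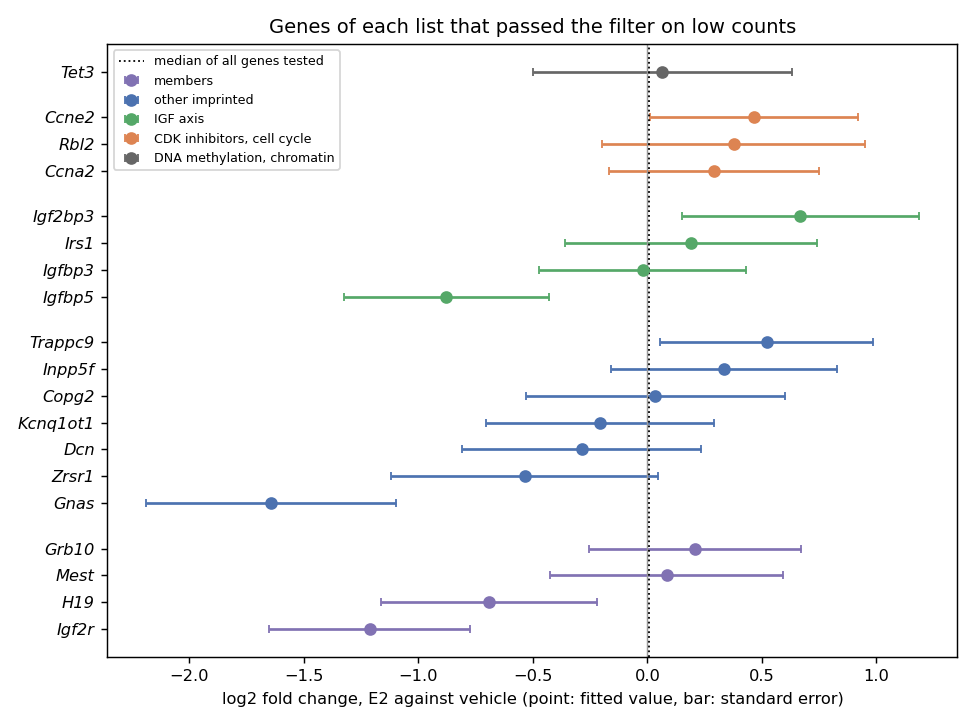
Fitted log2 fold change, E2 against vehicle (3 libraries each), of the 4 members and the 15 genes of the other lists that passed the filter on low counts; bars are standard errors and the dotted line is the median of all genes tested. Igf2r (-1.21) and Gnas (-1.64) lie farthest below 0, and Igf2bp3 (0.67) farthest above.

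Over the 6 libraries, the 10 tested genes whose log2(CPM + 1) was most like that of Cdkn1c by Pearson's r were Hnrnpu, Mthfd1, Col3a1, Ptms, Ndufb7, Sar1b, Mbd3, Ppp1cb, Fbxo32 and Enah, with r between 0.977 and 0.992. These values describe 6 points that share library and depth, and the 0 counts of Cdkn1c put 3 of the points at a common level. Hnrnpu, an RNA-binding protein gene, had vehicle counts of 27, 52 and 5 and E2 counts of 2, 4 and 4. H19, Igf2r, Grb10 and Mest, the only members that could be ranked because they passed the filter, were not among these genes.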

How the data were processed

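Reads of 6 TRAPseq libraries were processed by the authors with bcl2fastq (2.17), FastQC (0.11.2), STAR (2.5.3a) on mm10 and featureCounts of Subread (1.6.0), with versions from the submitters' processing notes. The authors deposited raw counts, 1 whole number for each gene symbol and library. The labels name a stranded total RNA kit and the paper a ribosome profiling kit, and no source used here gives the strand setting used to count.

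CPM used the sum of a library's counts. Differential expression was computed across all genes with edgeR (4.0.16) in R (4.3.3), with filterByExpr, TMM and the quasi-likelihood test with Benjamini-Hochberg adjustment over the 1682 genes kept. A standard error is the fitted log2 fold change divided by the square root of F, and the tests were checked on simulated counts. Alternatives were DESeq2 (1.42.0), limma-voom (limma 3.58.1), other filters and scalings, a replicate block and leaving out libraries. Positions and exons are from GENCODE mouse release M21, and exon length is the union over transcripts, which may differ from the exons counted.

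The members and lists were chosen with earlier results of these data known. Named genes are the members, called genes of the 4 lists, genes of each list with the most counts, microRNA genes and exon partners at member loci, the 10 genes most like Cdkn1c, and sex-linked genes. Genes outside this rule, which are Casp9, Cpa1, Cpb1, Pnlip, Prss2, Rn45s, Pax7, Myog, Fam212a, Pcna, Kcnq1, Phlda2, Slc22a18, Ascl2, Airn, Rian, Mirg, Rtl1, Cdkn1a, Cdkn1b, Igf1, Igf1r, Dnmt3a, Fabp4, Cdh5, Snrpn and Snurf, were named after their values were seen. Kdr and Egfl7 were named in the same way. Intervals and limits cover counting error only.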

Additional observations from a re-analysis of the deposited data

How the results depend on the processing

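Over all genes, 92 were called, and 163 without a filter, 11 with 10 counts required in every library, 8 with the replicate block, 7 without vehicle replicates 1 and 2 (where the lone vehicle library was assumed to vary like the E2 libraries), and between 12 and 1003 with 1 library left out, the highest without vehicle replicate 3. Library totals only moved the median log2 fold change of all genes from 0.01 to -0.12. Among the lists, 1 further imprinted gene (Gnas, adjusted p = 0.0460 in edgeR's quasi-likelihood test) was called without a filter. With 1 library left out, genes of these lists were called only without vehicle replicate 3, where 1003 of all 2162 genes tested were called. There, 2 of 9 further imprinted genes, 1 of 4 IGF axis genes and 1 of 3 genes of DNA methylation and chromatin marks were called. These counts are to be read beside that share and say little. Why so many genes were called there was not tested. The log2 of the E2 limit to the mean vehicle level of Cdkn1c was -3.86, -3.71 over TMM effective sizes, -3.72 without Rn45s and between -4.22 and -3.16 with 1 library left out. A fitted fold change of Cdkn1c is not given, as it depends on the prior count where a group is at 0.

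Same-numbered libraries did not deviate together (r of deviations from the group means across genes -0.13, 0.02 and -0.19). In these deviations no library correlated best with its own number, so the replicate numbers were not taken as pairs. With the block, 0 genes of the 4 lists were called. Depth limits the low members most, as 1 count is 11.8 CPM in vehicle replicate 3.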

Other observations

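Snrpn and Snurf, imprinted genes that share exons, had equal counts in all 6 libraries (6, 8 and 1 with vehicle and 1, 4 and 2 with E2).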
